A study of Arabidopsis thaliana with 12 samples.

Results

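The ATG8 genes of Arabidopsis thaliana encode small ubiquitin-like proteins of autophagy, and all 9 genes of the family, ATG8A to ATG8I, had a probe set of their own among the 22746 tested. Members were taken as the probe sets annotated to a single gene whose symbol or synonym is ATG8 followed by a letter. That gave 9 probe sets, 1 per gene, among 13356 genes with a probe set to themselves. In the gene records used, 7 carry the ATG8 symbol and 2, ATG8A and ATG8I, carry it as a synonym (APG8A and APG8H are their symbols there). The family was selected on measured values of these same arrays: ATG8B, ATG8D and ATG8E, the genes from which the family was chosen, were the 3 called for the average temperature difference. Differences of ATG8 genes between conditions are therefore given as descriptions. Where the fit over all probe sets called a member, the call is stated beside the share called over all probe sets and is not used as evidence.

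In autophagy, a double membrane grows around part of the cytoplasm, closes and carries its contents to the vacuole for breakdown. The protease ATG4 trims new ATG8 to a terminal glycine, and ATG7 and ATG3 then attach it to a membrane lipid, with a conjugate of ATG12 and ATG5 helping the last step. On the membrane, ATG8 is the docking site for receptors that bring in cargo. In Arabidopsis, ATG8H and ATG8I stand apart from the other members, because their proteins end at the glycine and need no trimming.

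Seedlings were wild type, ecotype Columbia, and their aerial parts were harvested at 10 days of age, having grown for 9 days at 22 °C in white light without a dark period and then for 24 h in 1 of 4 conditions. Those conditions combined 2 lights, white light alone (WL) or white light enriched by a far-red supplement (WFR), with 2 temperatures, 22 and 26 °C. Far-red light added to white light imitates the light reflected by neighbouring plants. Each condition had 3 arrays, labelled as biological replicates, and how many plants went into an array is not stated in the labels.

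Expression is given as log2 values normalised by the submitters, and a difference of 1 is a doubling. Array medians lay between 6.91 and 7.01. None of the 10 green tissue markers written for this comparison had a named probe set. Of nuclear photosynthesis genes chosen after their values were seen, LHCB4.1 lay between 13.89 and 14.13, PSAE-1 between 13.85 and 14.04, LHCB4.2 between 13.61 and 14.02 and PSAN between 13.18 and 13.71 on all 12 arrays. Of 10 root markers, 3 were measured (PYK10, EXPA7 and EXPA18). Their mean log2 value was 7.18 to 7.45 in white light at 22 °C and 7.20 to 7.71 with far-red light at 22 °C. At 26 °C it was 7.43 to 7.61 in white light and 7.22 to 7.40 with far-red light. That mean joins unlike levels. PYK10 had condition means of 11.67 in white light and 11.95 with far-red light at 22 °C, and of 12.14 and 12.02 at 26 °C. Condition means lay between 4.93 and 5.05 for EXPA7 and between 5.06 and 5.37 for EXPA18. Whether a small share of root tissue has a part in the ATG8 values was not tested. In whole aerial parts, more RNA per cell and more cells of a type with high expression cannot be told apart.

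Averaged over both lights, 8 of the 9 ATG8 genes had higher values at 26 °C than at 22 °C. ATG8B was 1.31-fold higher, ATG8E 1.25-fold and ATG8D 1.24-fold. Differences of 0.12 to 0.19 on the log2 scale followed for ATG8H, ATG8G, ATG8C and ATG8F, and ATG8A differed by 0.05. ATG8I alone was not higher, with a difference of -0.02 ± 0.0468 (SE). The median over the family was 0.15, against a median of -0.0064 over all tested probe sets. The count of 8 higher genes was the same under each of 4 other scalings of the arrays.

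A limma fit over all 12 arrays and 22746 probe sets called 3 ATG8 genes for this average difference (ATG8B, ATG8D and ATG8E), all higher at 26 °C. Of all probe sets, 5.39% were called, 2.92% as higher at 26 °C. Since the family was selected on this comparison, nothing is read from the count. The threshold lay between ATG8E, at 0.32 ± 0.0767 (SE), and ATG8H, at 0.19 ± 0.0527. Leaving out any 1 array kept ATG8B and ATG8D among the calls. ATG8E was lost in 7 of the 12 cases. These were the fits without white light 22 °C replicate 2, far-red 22 °C replicates 1 or 3, white light 26 °C replicates 2 or 3, or far-red 26 °C replicates 1 or 2, and its difference was 0.26 to 0.37 over all 12 fits.

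**Figure D1:**
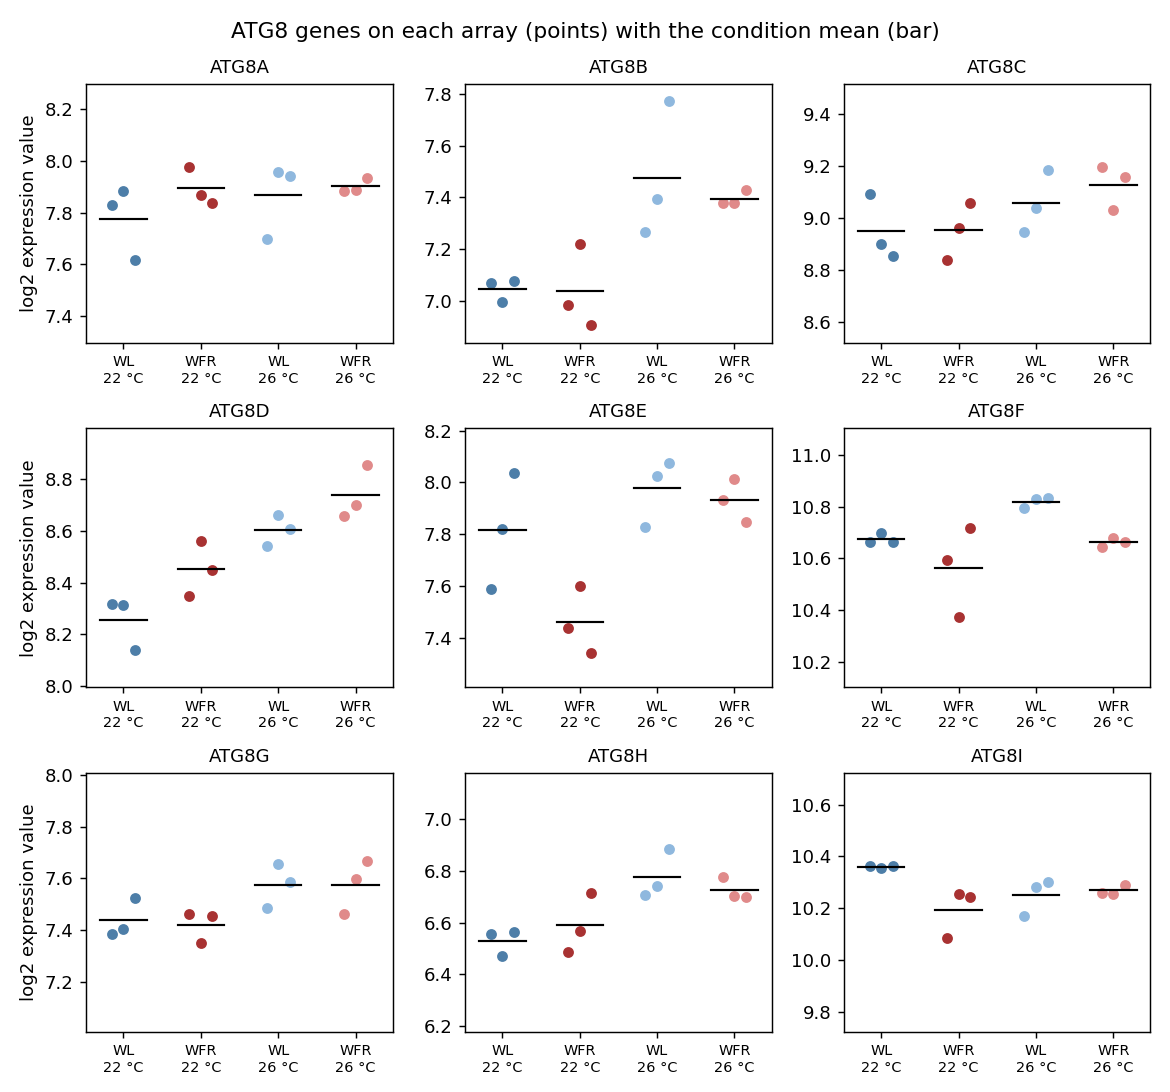
Log2 expression value (vertical axis, a span of 1 log2 unit in every panel) of the 9 ATG8 genes on each of the 12 arrays. Points are arrays, bars are means of 3 arrays, WL is white light and WFR adds far-red light; ATG8B and ATG8D are highest in the 26 °C conditions, ATG8E is lowest with far-red light at 22 °C, and ATG8I is highest in white light at 22 °C.

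ATG8B was measured at 7.07, 7.0 and 7.08 in white light at 22 °C and at 6.98, 7.22 and 6.91 with far-red light at 22 °C. At 26 °C it was 7.27, 7.39 and 7.77 in white light and 7.38, 7.38 and 7.43 with far-red light. All 6 arrays from 26 °C lay above all 6 from 22 °C, which held for 1.71% of all probe sets. The spread was uneven, with an SD of 0.263 in white light at 26 °C and 0.0277 with far-red light at 26 °C (n = 3 each). Ordered by mean, the conditions were far-red 22 °C (7.04), white light 22 °C (7.05), far-red 26 °C (7.40) and white light 26 °C (7.48). Conditions at the same temperature overlapped, and those at different temperatures did not. The single high array was white light 26 °C replicate 3. Over the fits that each left out 1 array, the average temperature difference was 0.32 to 0.45. Its sign could not change in these fits, because the 2 temperatures did not overlap.

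ATG8D differed from ATG8B in that both factors went with higher values. It was measured at 8.32, 8.31 and 8.14 in white light at 22 °C, and at 8.35, 8.56 and 8.45 with far-red light at 22 °C. At 26 °C it was 8.54, 8.66 and 8.61 in white light and 8.66, 8.70 and 8.85 with far-red light. The order of means ran from 8.26 in white light at 22 °C through 8.45 with far-red light at 22 °C and 8.60 in white light at 26 °C to 8.74 with far-red light at 26 °C. The lowest and second lowest conditions did not overlap, and each later neighbour overlapped the one before it. The average temperature difference was 0.31 ± 0.0566 (SE) and the average far-red difference 0.16 ± 0.0566, both on the log2 scale.

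ATG8E was lowest in a single condition, far-red light at 22 °C, where the arrays read 7.44, 7.60 and 7.34. In white light at 22 °C they read 7.59, 7.82 and 8.04, a wide spread (SD 0.225, n = 3) that reached the values at 26 °C. At 26 °C ATG8E was 7.83, 8.03 and 8.08 in white light and 7.93, 8.01 and 7.85 with far-red light. Means were 7.46 with far-red light at 22 °C, 7.82 in white light at 22 °C, 7.93 with far-red light at 26 °C and 7.98 in white light at 26 °C. Each neighbouring pair overlapped. The 26 °C arrays with far-red light all lay above the 22 °C arrays with far-red light.

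ATG8H was the nearest to the called genes. It was 6.56, 6.47 and 6.56 in white light and 6.49, 6.57 and 6.71 with far-red light at 22 °C. At 26 °C it was 6.70, 6.74 and 6.89 in white light and 6.77, 6.70 and 6.70 with far-red light. Only the far-red 22 °C array at 6.71 reached the range at 26 °C. ATG8H was also the only member among the dimmest 50% of probe sets, and all 9 members lay above the dimmest 25%.

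ATG8I, which shares with ATG8H a protein that ends at the glycine, had another order of conditions. Its arrays in white light at 22 °C read 10.36, 10.36 and 10.36 and were its highest. The others read 10.08, 10.25 and 10.24 with far-red light at 22 °C, 10.17, 10.28 and 10.30 in white light at 26 °C, and 10.26, 10.26 and 10.29 with far-red light at 26 °C. No array of another condition reached those in white light at 22 °C, and the other 3 conditions overlapped except with far-red light, where every 26 °C array lay just above every 22 °C array. How many probe sets separate white light at 22 °C from all other conditions was not computed. ATG8I had the narrowest range of the family over the 12 arrays, 0.28, where ATG8B had the widest, 0.86.

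ATG8F also separated conditions at 26 °C. It was 10.79, 10.83 and 10.83 in white light at 26 °C, above every other array of the series. It was 10.64, 10.68 and 10.66 with far-red light at 26 °C, and 10.66, 10.70 and 10.66 in white light at 22 °C. With far-red light at 22 °C it was spread from 10.37 to 10.72. How many probe sets separate white light at 26 °C from all other conditions was not computed. ATG8A, ATG8C and ATG8G overlapped between all conditions compared here except for ATG8G with far-red light, where the 26 °C arrays, at 7.46 to 7.67, only just cleared the 22 °C arrays, at 7.35 to 7.46. Condition means spanned 7.78 to 7.90 for ATG8A, 8.95 to 9.13 for ATG8C and 7.42 to 7.58 for ATG8G.

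In each light taken alone, the temperature differences put ATG8B and ATG8D among the first 3 genes. In white light ATG8B differed by 0.43 ± 0.111 (SE), ATG8D by 0.35 ± 0.0801, ATG8H by 0.25 ± 0.0746 and ATG8E by 0.16 ± 0.108. With far-red light ATG8E came first at 0.47 ± 0.108, then ATG8B at 0.36 ± 0.111, ATG8D at 0.28 ± 0.0801 and ATG8C at 0.18 ± 0.0884. In white light 8 of 9 genes were higher at 26 °C, and with far-red light 9 of 9, with medians of 0.14 and 0.15 against -0.0123 and 0.003 over all probe sets.

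In white light the limma fit called 0 of the 9 (0.611% of all probe sets), and 3 had an unadjusted p under 0.05 (12.8% of all probe sets). With far-red light it called 0 as well (1.1% of all probe sets), with 3 under an unadjusted p of 0.05 (14.1% of all probe sets). ATG8E was called there under each of the 4 other scalings, which called 1.2% to 1.33% of all probe sets. The arrays at 26 °C all lay above those at 22 °C for 4 genes in white light (8.31% of all probe sets) and for 5 with far-red light (9.75%). They all lay below for 1 gene, ATG8I, in white light (10.3%). Since the family was selected on values of these arrays, nothing is read from these counts.

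**Figure D2:**
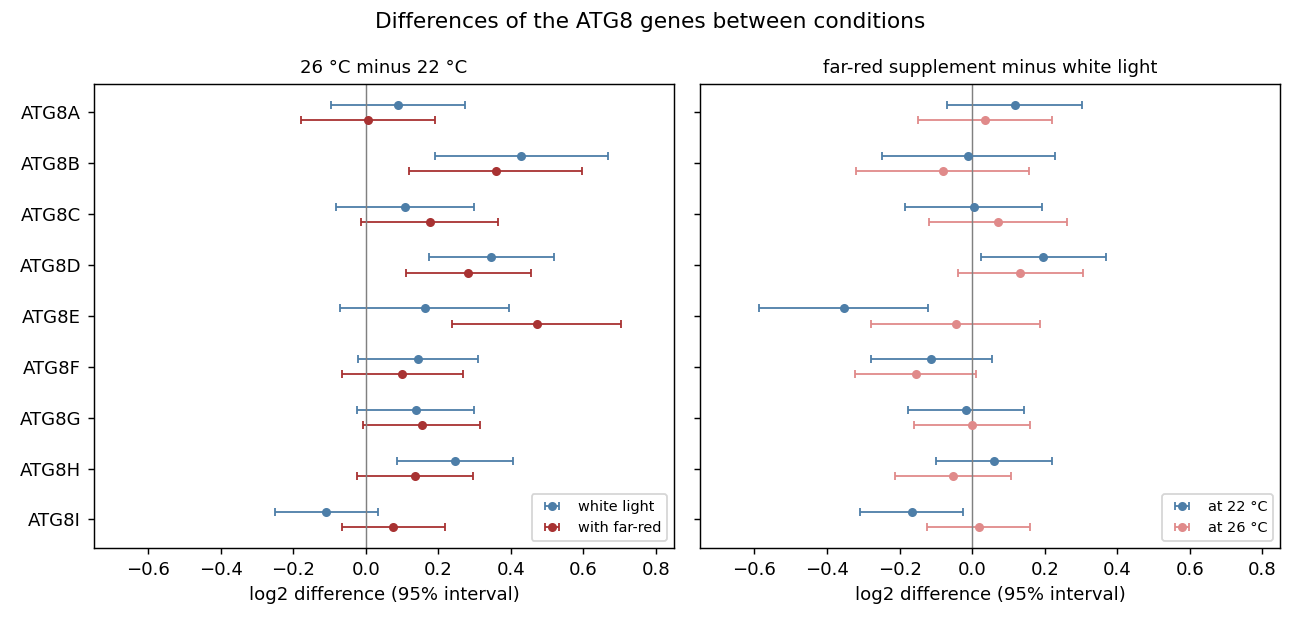
Log2 differences (horizontal axis) of the 9 ATG8 genes for temperature in each light (left) and for far-red light at each temperature (right), with 95% intervals from the limma fit of 12 arrays that are not adjusted for the number of probe sets. Temperature differences reach 0.47 and lie above 0 for every gene except ATG8I in white light, and far-red differences lie on both sides of 0.

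**Figure D3:**
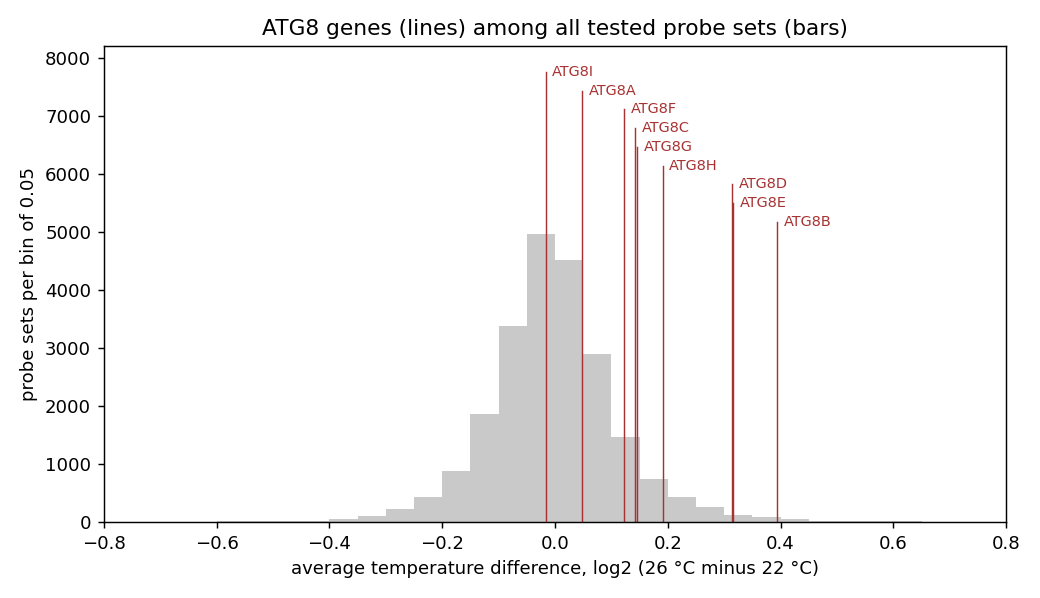
Number of probe sets (vertical axis, bins of 0.05) by average temperature difference on the log2 scale (horizontal axis) for the 22746 tested probe sets, with a line at the value of each ATG8 gene. ATG8I sits near the centre and ATG8B at 0.39, with 0.822% of probe sets further to the right.

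Placed among all 22746 probe sets, the average temperature difference of ATG8B was exceeded by 0.822%, that of ATG8E by 1.53% and that of ATG8D by 1.56%. For ATG8H the share was 5.23%, for ATG8G 8.50% and for ATG8C 8.87%. ATG8F, ATG8A and ATG8I were exceeded by 11.2%, 27.9% and 54.6%. The members thus range from the upper tail to the centre of the distribution.

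Far-red differences lay on both sides of 0, and no ATG8 gene was called for them. At 22 °C, ATG8D was higher with far-red light by 0.20 ± 0.0801 (SE), and ATG8E was lower, with a difference of -0.35 ± 0.108, and so was ATG8I at -0.17 ± 0.0662. At 26 °C the largest sizes were -0.16 ± 0.0777 for ATG8F and 0.13 ± 0.0801 for ATG8D. Averaged over both temperatures, ATG8D differed by 0.16 ± 0.0566, ATG8E by -0.20 ± 0.0767 and ATG8F by -0.13 ± 0.0549, and the other 6 by -0.07 to 0.08. The 3 named kept their sign under every one of the 4 other scalings.

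Far-red differences were positive for 4 of 9 genes at each temperature and on average. After subtracting array medians, 2 were positive at 22 °C and 3 at 26 °C, so the signs of the small differences depended on the scaling. The limma fit called 0 of 9 genes at 22 °C (0.659% of all probe sets), 0 at 26 °C (0.0879%) and 0 for the average (1.12%). Unadjusted p-values under 0.05 were found for 3, 0 and 3 genes, against 13.2%, 6.81% and 14.5% of all probe sets. At 22 °C the far-red arrays all lay above the white light arrays for 1 gene, ATG8D (9.16% of all probe sets), and all below for 1 gene, ATG8I (7.52%). At 26 °C they all lay below for 1 gene, ATG8F (5.17%). Nothing is read from these counts either, as the family was selected on values of these arrays.

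The difference between the far-red effects at 26 and 22 °C was largest for ATG8E, at 0.31 ± 0.153 (SE), and ATG8I, at 0.18 ± 0.0936. The other 7 genes lay between -0.11 and 0.07. The limma fit called 0 of the 9 and 0% of all probe sets for this interaction. At an unadjusted p under 0.05 it had 0 ATG8 genes and 1254 probe sets, or 5.51%.

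Over the 12 arrays, ATG8 genes tended to vary together, as a description of arrays that share their conditions. Of 36 pairs of members, 14 had a Pearson correlation above 0.5 and 4 were below 0, with a median of 0.36. The closest pair was ATG8B with ATG8H (r = 0.79), followed by ATG8C with ATG8H (0.77) and ATG8B with ATG8E (0.71). ATG8D and ATG8E, both among the genes highest at 26 °C, correlated at 0.30. After the condition means were removed the median was 0.15. The pair ATG8C and ATG8H kept a value of 0.76, and ATG8D and ATG8E had -0.19.

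The genes with the most similar profiles over the 12 arrays were sought among 13504 other probe sets with a single gene. For ATG8B they were AT1G76780 (r = 0.95), AT1G26800 (0.93) and AT2G42760 (0.91). For ATG8D they were AT3G48420 (0.96), AT5G04760 (0.91) and FRA3 (0.90), an inositol polyphosphate phosphatase gene. For ATG8E they were AT1G01490 (0.97), AT3G14490 (0.94) and AT2G35910 (0.94). Some of these were dim, against array medians of 6.91 to 7.01. Condition means were 3.90 to 4.02 for AT1G76780, 3.96 to 4.11 for AT3G14490, 4.90 to 5.11 for AT2G35910 and 5.79 to 6.20 for AT1G26800. Similarity of profile did not mean similarity of size: the average temperature difference was 0.10 for AT1G76780 and 0.47 for AT2G42760, against 0.39 for ATG8B. AT1G01490 had a difference of -0.24 for far-red light at 22 °C and of 0.27 for temperature with far-red light, where ATG8E had -0.35 and 0.47. These genes were chosen for their match on the same arrays, so their differences are descriptions. For the average temperature difference, the limma fit called 4 of the 9 as higher at 26 °C (AT1G26800, AT2G42760, AT3G48420 and AT5G04760). Of all probe sets 2.92% were called higher, and nothing is read from the count of 4.

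Of the other genes of autophagy, 43 were written down by function and 13 had a named probe set. By function these were 6 of 8 of the ATG1 and ATG13 initiation kinase complex and 2 of 6 of the phosphatidylinositol 3-kinase complex. Of the ATG9, ATG2 and ATG18 group that delivers membrane there were 0 of 10. Genes of ATG8 processing and conjugation made up 3 of 9, and receptors and adaptors that bind ATG8 made up 2 of 10. ATG5, ATG7, ATG18A, NBR1, ATI1, TOR and KIN10 were to be reported whatever their values, and none had a named probe set. The limma fit called 0 of the 13 in each of the 7 comparisons (adjusted p of 0.0779 or higher), with 0 to 2 of them under an unadjusted p of 0.05 (5.51% to 19.3% of all probe sets). For the average temperature difference 7 of the 13 were higher at 26 °C and 6 lower, with a median of 0.05, and the range was -0.12 to 0.18.

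ATG3, the enzyme that transfers ATG8 to the membrane lipid, was measured at 9.37, 9.27 and 9.30 in white light at 22 °C and 9.22, 9.23 and 9.15 with far-red light at 22 °C. At 26 °C it was 9.36, 9.31 and 9.30 in white light and 9.36, 9.43 and 9.41 with far-red light. For ATG3 the far-red arrays at 22 °C were below all others, and how common this is over all probe sets was not computed. Neither of its differences passed the limma test, at -0.11 ± 0.0605 for far-red light at 22 °C (adjusted p = 0.439) and 0.20 ± 0.0605 for temperature with far-red light (adjusted p = 0.134). The nearest to a call was AT5G50230, written down as ATG16 in the list of ATG8 processing and conjugation. Its average temperature difference was 0.16 ± 0.0501 (limma, adjusted p = 0.0779). Both were singled out after their values were seen.

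**Figure D4:**
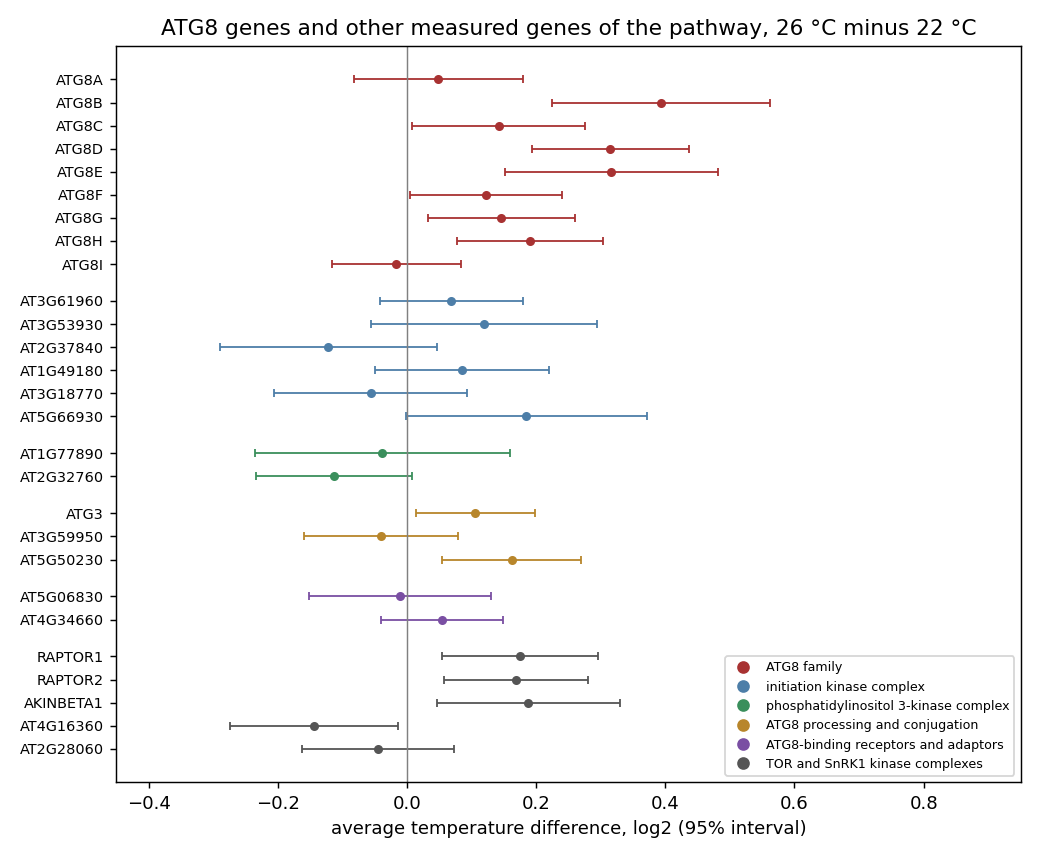
Average temperature difference on the log2 scale (horizontal axis, 26 °C minus 22 °C) with unadjusted 95% intervals for the 9 ATG8 genes, 13 other autophagy genes and 5 genes of the TOR and SnRK1 complexes, coloured by function. ATG8B, ATG8D and ATG8E, the genes from which the family was chosen, lie at 0.31 to 0.39. The remaining ATG8 genes lie between -0.02 and 0.19, and the 13 other autophagy genes between -0.12 and 0.18.

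Upstream of autophagy, the kinase TOR holds the process back and the kinase SnRK1 favours it when energy is short. Of 11 genes written for the complexes of both kinases, 5 were measured and 0 were called by the limma fit in any of the 7 comparisons. For the average temperature difference, 3 were higher at 26 °C and 2 lower, and 4 of the 5 had an unadjusted p under 0.05 (19.3% of all probe sets). RAPTOR1 and RAPTOR2, which encode the substrate-binding partner of TOR, had average temperature differences of 0.18 ± 0.0562 and 0.17 ± 0.052 (limma, adjusted p = 0.0898 and 0.0765). AKINBETA1, a regulatory subunit of SnRK1, had one of 0.19 ± 0.0662 (limma, adjusted p = 0.125). The other 2 genes, written down as SnRK1 subunits, had negative differences, at -0.14 ± 0.0607 for AT4G16360 (limma, adjusted p = 0.201) and -0.04 ± 0.055 for AT2G28060 (limma, adjusted p = 0.74).

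Of 10 genes of sugar starvation and darkness, 3 were measured (IVD, MCCA and MCCB, of leucine breakdown), and of 12 genes of leaf senescence and chlorophyll breakdown, 3 were measured (SAG101, WRKY53 and WRKY6). The limma fit called 0 of the 3 in each list in any of the 7 comparisons. At most 1 gene of a list had an unadjusted p under 0.05. Their average temperature differences had medians of 0.08 and -0.0007, with ranges of 0.05 to 0.12 and -0.06 to 0.11.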

How the data were processed

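Expression in 12 samples was measured on 1-colour arrays, and the authors deposited normalised log2 values. Per the submitters' processing notes, the tools were RMA, affy and MAS5 (no version stated), but not which of these made the deposited values. Of 22810 probe sets, 64 controls were left out. Genes came from the platform annotation, with symbols updated through RefSeq records (TAIR10.1, for names only): 13513 probe sets had 1 gene, 503 several, and 8730 are unnamed here. Unnamed probe sets entered the fit but no list.

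limma 3.58.1 in R 4.3.3 (lmFit, eBayes) was fitted with 1 mean per condition (8 residual degrees of freedom, 5.99 added by moderation), checked on simulated data. All tests were two-sided, p-values were adjusted by Benjamini-Hochberg across the 22746 tested probe sets, and called means an adjusted p under 0.05. The 7 comparisons were the far-red difference at each temperature, the temperature difference in each light, both averages and the interaction. Where a gene had several probe sets, that with the highest mean was used. Arrays give no depth, so their number limits precision. The p-values rest on the spread between arrays labelled biological replicates, pooled over the conditions and moderated over all probe sets.

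The members and gene lists were chosen with earlier results of these data known. Named were all members, up to 3 called genes per list and comparison (there were none), 7 fixed genes, and the 3 most correlated genes for each of ATG8B, ATG8D and ATG8E; other named genes were chosen after their values were seen. Deviations from the condition means correlated above 0.1 in 1 of 18 pairs of same-numbered arrays (-0.26 to 0.12). Pairs with different numbers spanned -0.246 to 0.247. With 3 arrays per condition these values cannot settle whether the numbers pair the arrays. Alternatives were 4 scalings, 2 filters on dim probe sets, a variance trend, array weights, a replicate block, fits of only the conditions compared, all probe sets of a gene, and each array left out.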

Additional observations from a re-analysis of the deposited data

Results flagged for a closer look

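ATG8I had temperature differences of opposite sign in the 2 lights, and in neither was it called. In white light its 26 °C arrays all lay below its 22 °C arrays (a difference of -0.11), as did those of 10.3% of all probe sets. With far-red light they all lay above (0.08), as did those of 9.75%. The 2 differences are 0.18 ± 0.0936 (SE) apart on the log2 scale. The limma fit called 0% of all probe sets for the interaction, so nothing is read from the missing call for ATG8I. How many probe sets separate in opposite directions in the 2 lights was not computed.

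AT3G18770, from the written list of the initiation kinase complex, showed the same separation for both factors. It was 6.07, 6.09 and 6.20 in white light at 22 °C, 5.99, 6.05 and 5.95 with far-red light at 22 °C, 6.03, 5.88 and 5.56 in white light at 26 °C, and 6.19, 6.10 and 6.25 with far-red light at 26 °C. Far-red arrays were all lower at 22 °C (7.52% of all probe sets) and all higher at 26 °C (9.17%). The 26 °C arrays were all lower in white light (10.3%) and all higher with far-red light (9.75%). The far-red differences at the 2 temperatures, and likewise the temperature differences in the 2 lights, are 0.48 ± 0.139 (SE) apart. This did not pass the limma interaction test (adjusted p = 0.902). The lowest of the 12 arrays was white light 26 °C replicate 3, at 5.56. The gene was dim, as all 12 values lay below the array medians of 6.91 to 7.01. How many probe sets show such a reversal for both factors was not computed.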

How the results depend on the processing

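No called value changed sign under any alternative run. For the average temperature difference the number called was 3 in the fit reported (5.39% of tested probe sets) and 3 with the replicate block (4.1%). With array weights it was 5 (ATG8G and ATG8H were added), with 9.88% of probe sets called. It was 4 under 3 alternatives: upper quartile (5.63%), cyclic loess (5.83%) and without the lowest 25% (8%). When 1 array was left out it was 2 to 3 (2.88% to 5.97%). For temperature with far-red light it was 1 (ATG8E), against 0, under all 4 scalings and both filters on dim probe sets. The same held for the variance trend, array weights and the fit of only the conditions compared. These settings called 0.646% to 3.71% of tested probe sets there, against 1.1% in the fit reported. When 1 array was left out it was 0 to 1 (1 without white light 22 °C replicate 1 or 3), with 0.176% to 1.67% of probe sets called. For temperature in white light it was 1 without the lowest 50% of probe sets (1.93% of those tested) and 3 with array weights (7.1%). The fit reported called 0 (0.611%). Of the other autophagy genes, 1 was called for the average temperature difference without the lowest 50% of probe sets (13.5% of those tested). Array weights also called 1 (9.88%), against 0 in the fit reported (5.39%). Counts of ATG8 genes and of other autophagy genes called in the remaining comparisons were 0 throughout. Counts over all probe sets moved more: 10 to 398 for far-red light at 22 °C (150 as reported), 6 to 71 at 26 °C (20) and 98 to 835 on average (255), and 44 to 1614 for temperature in white light (139), 40 to 429 with far-red light (250) and 655 to 2247 on average (1227). For the interaction, 2 were called with array weights and 0 otherwise. The causes were not tested. The labels do not say whether replicate numbers pair the arrays, and correlations of same-numbered arrays cannot settle it with 3 arrays per condition. With the replicate block 933 of all probe sets were called for the average temperature difference, against 1227, with 0 ATG8 genes called in the other comparisons. Fits of only the conditions compared could not be made for the averages and the interaction. With 3 arrays per condition, how often these tests would call differences of the size of most ATG8 genes was not tested.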
